A study of Sus scrofa with 40 samples.

Results

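The RNA of 10 cohesin genes was followed in pig oocytes at metaphase II, the mature egg stage in which sister chromatids are still held together at their centromeres. The genes are the acetyltransferases ESCO2 and ESCO1, the core subunits SMC3, SMC1A, SMC1B, RAD21, REC8, STAG2 and STAG3, and the regulator PDS5B, and they were taken by name from the 38794 gene rows that both count tables share. A row carried the symbol itself for 6 of the 10, and the other 4 (SMC1A, SMC1B, STAG3 and PDS5B) were found under their NCBI gene number. The genes were selected on measured values of these same libraries, and which values led to ESCO2 is not recorded. For that reason the state differences of all 10 genes, and every difference of ESCO2, are given as a description without a p of their own.

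Cohesin is a ring that encircles sister DNA. Its body is SMC3 paired with an SMC1 protein, closed by a kleisin subunit and bound by a STAG subunit. Mitotic rings use SMC1A, RAD21 and STAG1 or STAG2, while meiotic rings use SMC1B, REC8 and STAG3, and rings loaded before birth must hold an oocyte's chromosomes until ovulation. ESCO1 and ESCO2 acetylate SMC3, which shields the ring from the release factor WAPL. PDS5 proteins sit on the ring and take part in both its stabilisation and its release, shugoshins protect it at centromeres, and separase cuts it.

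The pigs were commercial hybrids of the breeds Berkshire, Duroc and Large White. Each library was labelled as mtDNA-deficient or mtDNA-normal. There were 5 deficient and 6 normal pools of oocytes, although the series text names 5 per group, and 14 deficient and 15 normal single oocytes. Per the labels' protocols, pools were extracted with a Picopure kit and amplified with Nugen's Ovation V2 system, and single oocytes were lysed in the tube and made into libraries with Nugen's SoLo kit and pig-specific primers against unwanted transcripts. Library type, kit and depth therefore go together and cannot be told apart. Titles of deficient single oocytes carry the word BCBneg and those of normal ones BCBpos, and pool titles carry neg and pos in the same way. Beyond these test words the labels do not say how the state was assigned. Nor do they say how many animals gave the oocytes, or whether replicates are separate animals. The p-values thus reflect spread among the libraries at hand, and that spread may be technical.

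A level is given in CPM, the count of a gene per 1000000 counts in named genes, and levels are compared between samples and never between genes, since no transcript lengths were used. Pools held 14480546 to 29538982 counts and single oocytes 706929 to 3067523. In single oocytes 1 row, LOC102158401, took 46.7% to 76.0% of the counts, with 58.5% ± 6.71 (SD, n = 14) in deficient and 64.2% ± 5.21 (SD, n = 15) in normal oocytes, so that any other gene has a higher CPM in the deficient oocytes if its share of the remaining counts is equal. In pools the row took at most 0.027%. Of 14 oocyte markers, 12 reached a mean of 10 CPM in each library type. Of 19 cumulus and granulosa markers, 3 did so in pools and 2 in single oocytes, and their summed level was 129.5 to 294.1 CPM in deficient and 153.7 to 244.0 CPM in normal pools, and 44.0 to 116.5 and 22.5 to 103.5 CPM in the oocytes. AMH and KRT8 were at 0 counts in all 40 libraries. In pools, fewer cells of a type and less RNA per cell cannot be told apart.

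ESCO2, which acetylates SMC3 around DNA replication, took one of the largest shares of the counts in pools, uncorrected for length. It made up 0.281% to 0.917% of a pool's counts and ranked 4th of 38794 rows by its mean share. In the deficient pools it stood at 9171 CPM (pool A1), 8445 CPM (A2), 6494 CPM (A3), 2972 CPM (B2) and 5553 CPM (B4). In the normal pools it stood at 5129 CPM (A2), 5785 CPM (A3), 8203 CPM (A4), 5374 CPM (B1), 2808 CPM (B2) and 7161 CPM (B4). The pool titled B2 was the lowest of each state, and the states overlapped over most of their range, with means of 6527 ± 2463 CPM (SD, n = 5) and 5743 ± 1854 CPM (SD, n = 6). The spread among pools, a coefficient of variation of 34.05%, was far above the 0.269% that counting error alone gives at a mean of 138049 counts. The B2 pools had the most genes detected within their state, 18456 in the deficient and 19245 in the normal pool, and whether that moves with ESCO2 beyond these pools was not tested.

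In single oocytes ESCO2 was counted in every cell but at a far smaller share, with a rank of 249. Deficient oocytes had a lowest, median and highest level of 149.0, 189.1 and 367.2 CPM, and normal oocytes 89.6, 168.8 and 272.6 CPM. The deficient oocytes lay slightly higher and the ranges overlapped widely, with means of 213.2 ± 61.1 CPM (SD, n = 14) and 173.7 ± 47.4 CPM (SD, n = 15). When LOC102158401 and the 18S ribosomal RNA row RN18S were left out of the totals, the means were 563.0 ± 92.3 and 529.1 ± 119.8 CPM and lay closer together for their size. ESCO2 was even from cell to cell: its coefficient of variation of 29.6% was the lowest of the 10 genes in single oocytes, where counting error alone gives 6.10%.

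**Figure D1:**
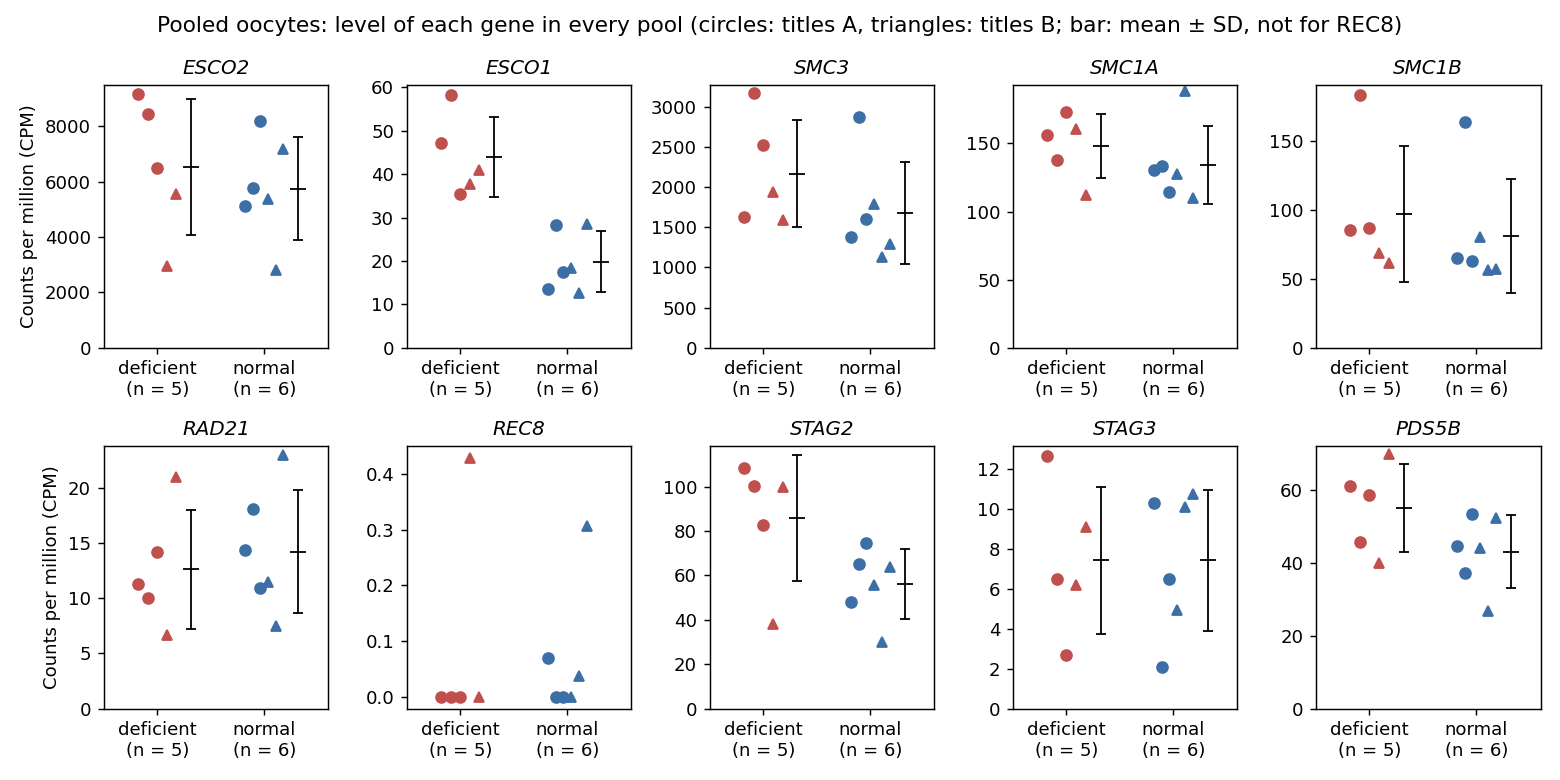
Level of each gene in every pool in CPM, deficient (5 pools) beside normal (6 pools), with circles for pools titled A, triangles for pools titled B and a bar for the mean ± SD; each panel has its own axis from 0. ESCO1 is the gene whose groups do not overlap (35.34 to 58.29 against 12.72 to 28.59 CPM), and REC8 is at 0 in 7 of 11 pools.

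ESCO1, the other acetyltransferase, acts on cohesin outside replication. Deficient pools held 47.25 CPM (A1), 58.29 CPM (A2), 35.34 CPM (A3), 37.86 CPM (B2) and 41.0 CPM (B4). Normal pools held 13.62 CPM (A2), 28.19 CPM (A3), 17.4 CPM (A4), 18.48 CPM (B1), 12.72 CPM (B2) and 28.59 CPM (B4). Every deficient pool was above every normal pool, with means of 43.95 ± 9.17 CPM (SD, n = 5) and 19.83 ± 6.98 CPM (SD, n = 6). By title letter, whose meaning is not stated, the means were 46.96 ± 11.5 and 19.73 ± 7.56 CPM (SD, n = 3 and 3) for A and 39.43 ± 2.22 and 19.93 ± 8.03 CPM (SD, n = 2 and 3) for B. ESCO1 was the only one of the 9 members tested in pools whose groups did not overlap, and over all 13540 genes tested 0.207% lay wholly higher in deficient pools and 0.391% wholly lower.

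In single oocytes ESCO1 came close to the limit of counting. It had 0 to 11 counts in a deficient and 0 to 12 in a normal oocyte, with 0 counts in 2 of 14 and 5 of 15. The medians were 3.24 CPM (deficient) and 1.18 CPM (normal), and the highest values were 13.28 and 9.14 CPM. When the counts of oocytes with the same state and leading title number were added up, the 4 deficient sums held 3.83, 3.63, 3.06 and 3.31 CPM and the 3 normal sums 4.246, 1.504 and 1.977 CPM. The highest normal sum lay above all 4 deficient sums, so the separation of the pools was not seen in this set, in which 9 to 27 counts stand behind each sum.

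SMC3, the subunit that ESCO1 and ESCO2 modify, ranked 40th in pools by its share of counts. Deficient pools held 1631 CPM (A1), 3166 CPM (A2), 2526 CPM (A3), 1939 CPM (B2) and 1587 CPM (B4). Normal pools held 1380 CPM (A2), 2873 CPM (A3), 1607 CPM (A4), 1789 CPM (B1), 1132 CPM (B2) and 1291 CPM (B4). The deficient pools were the higher on average (2170 ± 671 against 1679 ± 630 CPM), and the groups overlapped.

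SMC1B, the meiotic partner of SMC3, peaked in the same 2 pools as SMC3. Deficient pools held 85.18 CPM (A1), 183.6 CPM (A2), 86.78 CPM (A3), 68.56 CPM (B2) and 61.33 CPM (B4), and normal pools 64.97 CPM (A2), 164.0 CPM (A3), 62.8 CPM (A4), 80.71 CPM (B1), 56.78 CPM (B2) and 57.12 CPM (B4). Deficient A2 and normal A3 stood alone, at about the same height, and the other 9 pools lay between 56.78 and 86.78 CPM. These 2 pools had the fewest genes detected of their state, 14207 and 15057, and the part of that in the result was not tested. SMC1A, the partner of SMC3 in mitotic rings and in part of the meiotic ones, varied least of the members among pools (coefficient of variation 18.5%), with means of 148.2 ± 23.6 CPM (deficient) and 134.2 ± 28.4 CPM (normal). Its highest pool was normal B2 at 188.8 CPM, a pool that was the lowest of its state for ESCO2, ESCO1, SMC3, SMC1B, RAD21, STAG2 and PDS5B. This pool had the highest RN18S share of all pools, 1.298% of its counts, and the part of that in these values was not tested.

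In single oocytes SMC3 ranged more widely than ESCO2. Deficient oocytes had a lowest, median and highest level of 7.96, 50.79 and 123.0 CPM, and normal oocytes 16.76, 46.63 and 82.76 CPM. The 3 lowest of the 29 were deficient oocytes of 22 September, the later of the 2 dates in the column names, with 8, 11 and 22 counts at 7.96, 8.04 and 14.91 CPM. SMC1B was also low in these 3 oocytes, with 1, 1 and 2 counts at 0.995, 0.731 and 1.36 CPM, while the other 11 deficient oocytes held 2.81 to 20.52 CPM. Their SMC1A was not low in the same way, at 31.83, 45.3 and 14.91 CPM, within the 9.78 to 72.92 CPM of all 29. Over all oocytes SMC1B averaged 8.27 ± 5.84 CPM in the deficient (SD, n = 14) and 3.58 ± 2.48 CPM in the normal cells (SD, n = 15), and SMC1A 36.4 ± 15.6 and 29.1 ± 12.5 CPM. With LOC102158401 and RN18S left out of the totals, SMC1B averaged 21.04 ± 14.55 and 10.81 ± 7.11 CPM. SMC1A then averaged 94.3 ± 29.3 and 88.8 ± 35.5 CPM, and SMC3 126.1 ± 72.9 and 163.3 ± 67.6 CPM.

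Of the kleisins, which close the ring, only RAD21 was counted throughout the pools. REC8, the meiotic kleisin, had 11 counts in deficient pool B2, 5 in normal B4, 2 in normal A2, 1 in normal B2 and 0 in the other 7 pools. A count of 0 allows up to 3 counts, or 0.102 to 0.207 CPM at the depth of these pools, by counting error alone. In single oocytes REC8 was at 0 in 24 of 29, with at most 3 counts, and the same limit is 0.978 to 4.24 CPM. REC8 passed the filter on low counts in no comparison, so the other 9 members are those tested below. RAD21, the mitotic kleisin, was counted in every pool, at 12.6 ± 5.40 CPM (deficient) and 14.2 ± 5.59 CPM (normal), with the lowest of each state in B2 (6.64 and 7.49 CPM) and the highest in B4 (20.98 and 23.02 CPM). In single oocytes it had 0 counts in 6 of 29 and medians of 3.89 CPM (deficient) and 2.40 CPM (normal). RAD21L1, a further germline kleisin, had 1 count in 1 pool and none in the other 39 libraries.

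**Figure D2:**
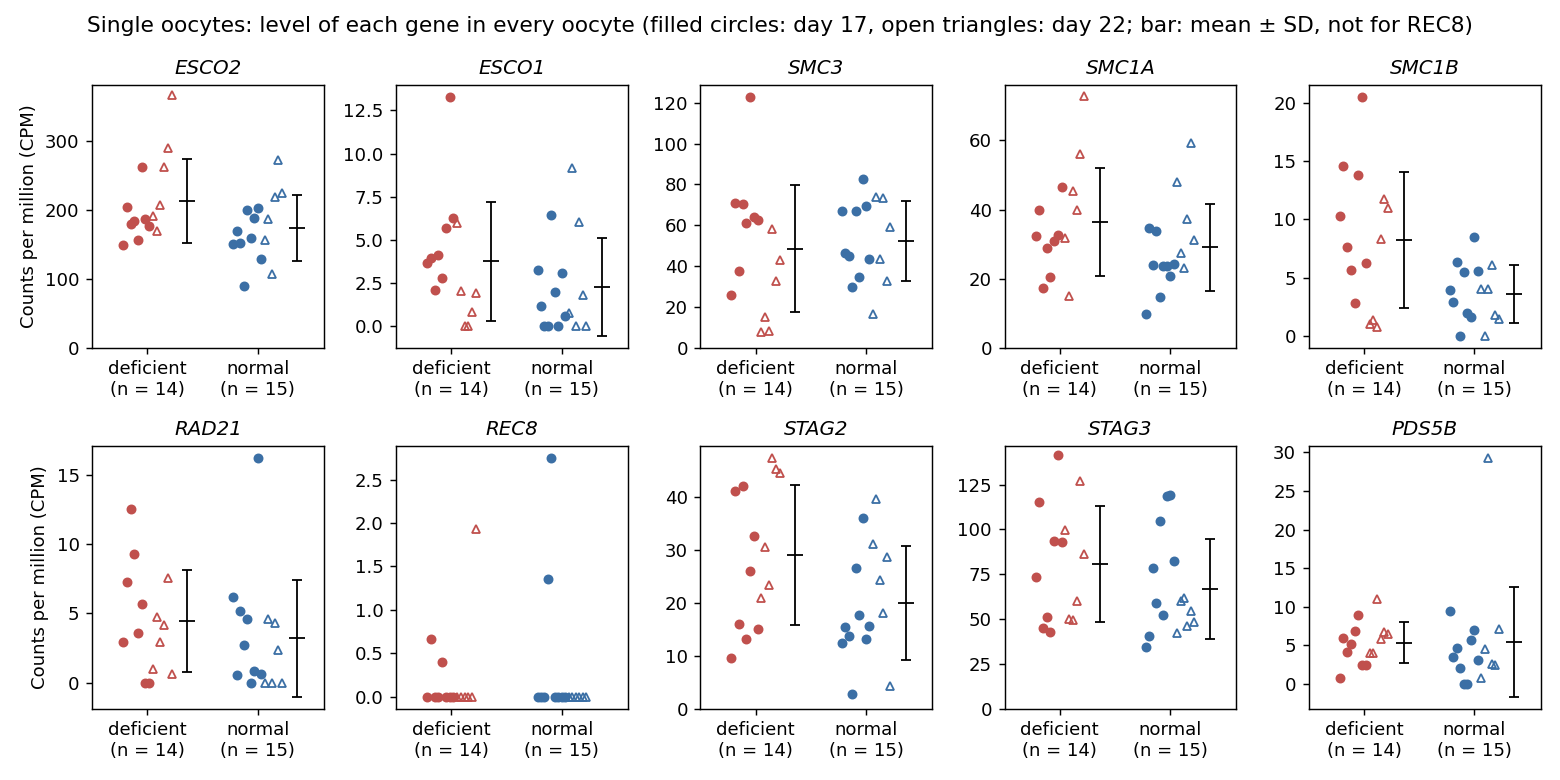
Level of each gene in every single oocyte in CPM, deficient (14 oocytes) beside normal (15), with filled circles for 17 September, open triangles for 22 September and a bar for the mean ± SD; each panel has its own axis. The ranges of the states overlap for every gene, and the 3 lowest SMC3 values (7.96, 8.04 and 14.91 CPM) are deficient oocytes of 22 September.

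The STAG subunits bind the closed ring. STAG2, the mitotic form, stood in deficient pools at 108.4 CPM (A1), 100.4 CPM (A2), 82.94 CPM (A3), 38.09 CPM (B2) and 99.95 CPM (B4), and in normal pools at 47.89 CPM (A2), 65.22 CPM (A3), 74.78 CPM (A4), 55.72 CPM (B1), 29.99 CPM (B2) and 63.98 CPM (B4). All deficient pools other than B2 were above all normal pools (85.96 ± 28.3 against 56.26 ± 15.8 CPM). Single oocytes held 29.1 ± 13.3 CPM of STAG2 when deficient (SD, n = 14) and 19.97 ± 10.8 CPM when normal (SD, n = 15). With LOC102158401 and RN18S left out of the totals, these means were 77.4 ± 33.3 and 60.6 ± 32.6 CPM.

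STAG3, the meiotic form, was level between the states in pools. Deficient pools held 12.66 CPM (A1), 6.49 CPM (A2), 2.69 CPM (A3), 6.21 CPM (B2) and 9.11 CPM (B4), and normal pools 10.29 CPM (A2), 2.06 CPM (A3), 6.49 CPM (A4), 4.94 CPM (B1), 10.11 CPM (B2) and 10.78 CPM (B4). The states had almost the same mean (7.43 ± 3.71 and 7.44 ± 3.53 CPM). In single oocytes STAG3 had a lowest, median and highest level of 42.56, 79.93 and 141.3 CPM in deficient and 34.23, 59.06 and 119.0 CPM in normal oocytes. With LOC102158401 and RN18S left out of the totals, its means were 212.1 ± 74.2 (SD, n = 14) and 201.0 ± 68.7 CPM (SD, n = 15). Every one of the 29 oocytes was above every pool.

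PDS5B, which binds the ring beside its kleisin, averaged 55.1 ± 12.1 CPM over the deficient pools and 43.1 ± 9.93 CPM over the normal ones, with ranges of 40.08 to 70.04 and 26.75 to 53.33 CPM. Its single-oocyte levels were 5.34 ± 2.68 and 5.48 ± 7.13 CPM, and 1 normal oocyte at 29.32 CPM made the larger SD.

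Between the states, none of the 9 members was called in pools or in single oocytes, and neither was any other gene. edgeR's quasi-likelihood test with Benjamini-Hochberg adjustment called 0 of 13540 genes in pools (0%), while 726 (5.36%) had an unadjusted p below 0.05, and DESeq2 called 21 higher and 7 lower, no member among them. In the sums of single oocytes edgeR called 0 of 11964 genes (0%), while 231 (1.93%) had an unadjusted p below 0.05, and DESeq2 called 2. A replicate block for the title number, over the 6 sums with a counterpart in the other state, gave 2 genes lower by edgeR, LOC102167309 and SIRT4, which were noticed after their values were seen and are no members.

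As a description, 8 of the 9 members had a positive log2 difference (deficient minus normal) in pools, with a median of 0.38, against a median of -0.0019 over all genes. ESCO1 had 1.27 (SE 0.32), STAG2 0.75 (SE 0.32), PDS5B 0.49 (SE 0.24), SMC3 0.48 (SE 0.36), SMC1B 0.38 (SE 0.43), ESCO2 0.35 (SE 0.34), SMC1A 0.28 (SE 0.21), STAG3 0.19 (SE 0.42) and RAD21 -0.06 (SE 0.37). Over 15 other settings ESCO1 stayed between 1.03 and 1.54 and ESCO2 between 0.14 and 0.55, whereas SMC1B, STAG3 and RAD21 took both signs. In single-oocyte sums the median of the members was 0.10 and the values lay between -0.50 (SE 0.32) for SMC3 and 0.71 (SE 0.58) for SMC1B. ESCO2 had 0.02 (SE 0.19) there and ESCO1 0.27 (SE 0.67). Over 12 other settings ESCO1 ran from 0.02 to 0.77, the highest being without normal sum 2. SMC3 ran from -1.16 to -0.06 over 15 other settings of the single-oocyte contrast. Its deficient sum 2 held 12.09 CPM from 30 counts, against 49.46, 58.36 and 54.02 CPM in the other deficient sums. The test of whether the state effect differed between pools and single oocytes called 0 of 17643 genes (0%), while 939 (5.32%) had an unadjusted p below 0.05. The members farthest from 0 there, again as a description, were ESCO1 (-1.02, SE 0.58), SMC3 (-0.98, SE 0.56) and PDS5B (-0.90, SE 0.48).

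**Figure D3:**
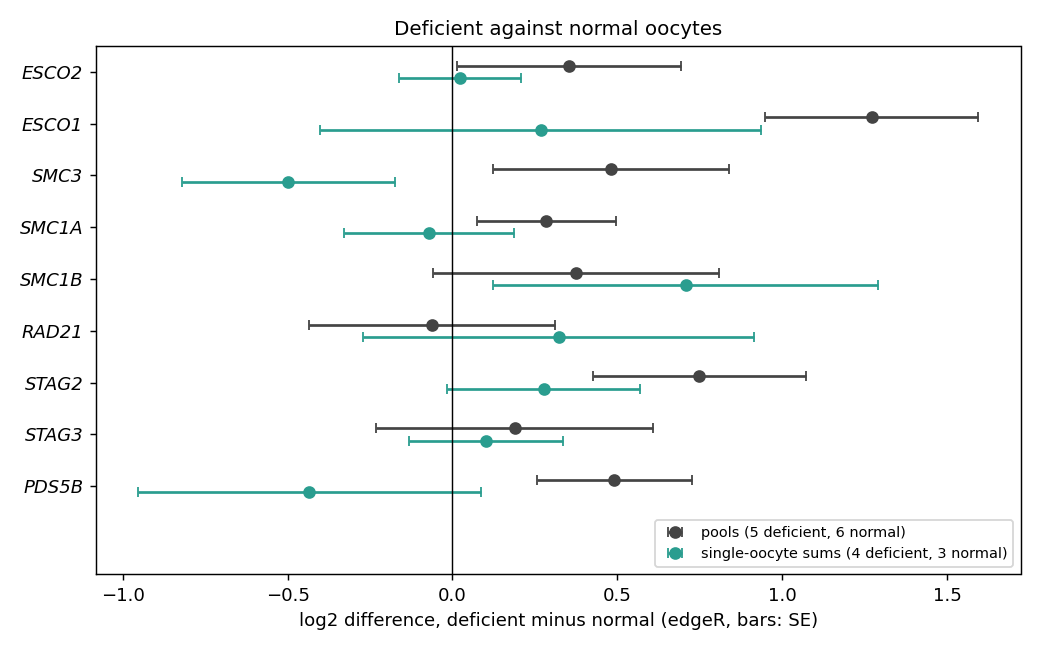
Log2 difference between deficient and normal oocytes for the 9 members tested, from edgeR in pools (5 against 6) and in single-oocyte sums (4 against 3), with bars for the standard error; REC8 was not tested. ESCO1 in pools lies farthest from 0 at 1.27, and its value in the sums is 0.27.

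Library type separated the members far more than mtDNA state. In each state STAG3 was higher in single-oocyte libraries, and the other 8 members tested had negative differences, single-oocyte sums minus pools. In normal oocytes edgeR called 51.4% of 17643 genes between the library types, 26.1% higher and 25.3% lower in single-oocyte sums, and in deficient oocytes 57.2%, 29.6% higher and 27.6% lower. Of the 8 tested members other than ESCO2, 6 were lower and 1 higher in each state, and a call by itself was common. As a description, the median of the 9 members, ESCO2 included, was -2.23 in normal and -3.13 in deficient oocytes. The median of all genes was 0.11 and 0.17. Because the members were selected on values of these libraries, that gap does not set them apart from other genes. The 2 contrasts share no library.

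SMC3 was lower in single-oocyte libraries, at -4.42 on the log2 scale (SE 0.51, edgeR adjusted p = 1.67e-07) in normal and -5.41 (SE 0.48, adjusted p = 1.86e-09) in deficient oocytes, or 21.4-fold and 42.4-fold. ESCO2 had -4.45 (SE 0.42) and -4.79 (SE 0.38), given without a test. SMC1B followed with -3.93 (SE 0.62, adjusted p = 1.21e-05) and -3.59 (SE 0.54, adjusted p = 5.05e-06). PDS5B had -2.23 (SE 0.38, adjusted p = 3.02e-05) and -3.13 (SE 0.36, adjusted p = 1.04e-07), and ESCO1 -2.39 (SE 0.46, adjusted p = 0.000126) and -3.41 (SE 0.43, adjusted p = 4.35e-07). The SMC1 genes were unlike each other, as SMC1A fell by only 1.58 (SE 0.27, adjusted p = 3.90e-05) and 1.95 (SE 0.26, adjusted p = 6.81e-07) on the log2 scale.

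STAG3 ran against the other members, higher in single-oocyte libraries by 3.76 on the log2 scale (SE 0.37, edgeR adjusted p = 1.45e-08) in normal and 3.64 (SE 0.38, adjusted p = 2.42e-08) in deficient oocytes, or 13.6-fold and 12.5-fold. Its values stayed between 3.60 and 4.26, and 3.56 and 4.16, over 23 other settings. STAG2 had -0.87 (SE 0.37, adjusted p = 0.0520) in normal and -1.36 (SE 0.35, adjusted p = 0.00190) in deficient oocytes, and STAG1, the other mitotic form, -3.85 (adjusted p = 2.40e-06) and -3.29 (adjusted p = 2.04e-06). RAD21 had -1.41 (SE 0.52, adjusted p = 0.0272) in normal and -1.04 (SE 0.48, adjusted p = 0.0650) in deficient oocytes.

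The call of RAD21 in normal oocytes depended on the scaling, while STAG2 kept its side of the threshold in each state under RLE. With RLE size factors in place of TMM the median of all genes moved from 0.11 to 0.59 in normal and from 0.17 to 0.65 in deficient oocytes, and the share of called genes that were higher moved from 50.8% to 62.8% and from 51.8% to 61.5%. RAD21 then had -0.95 (adjusted p = 0.132) and -0.56 (adjusted p = 0.331), and STAG2 -0.40 (adjusted p = 0.389) and -0.88 (adjusted p = 0.0402). In normal oocytes RAD21 also missed the threshold without normal pool A3 or B4 and without normal sum 2 or 4 (adjusted p up to 0.111), and STAG2 passed it without deficient pool A2 or B2, normal pool A2 or B2 or normal sum 2 (adjusted p down to 0.0174). In deficient oocytes RAD21 passed without pool B2 (adjusted p = 0.0322) or without sum 3 (adjusted p = 0.0229). No member changed direction in either state over the 23 settings.

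**Figure D4:**
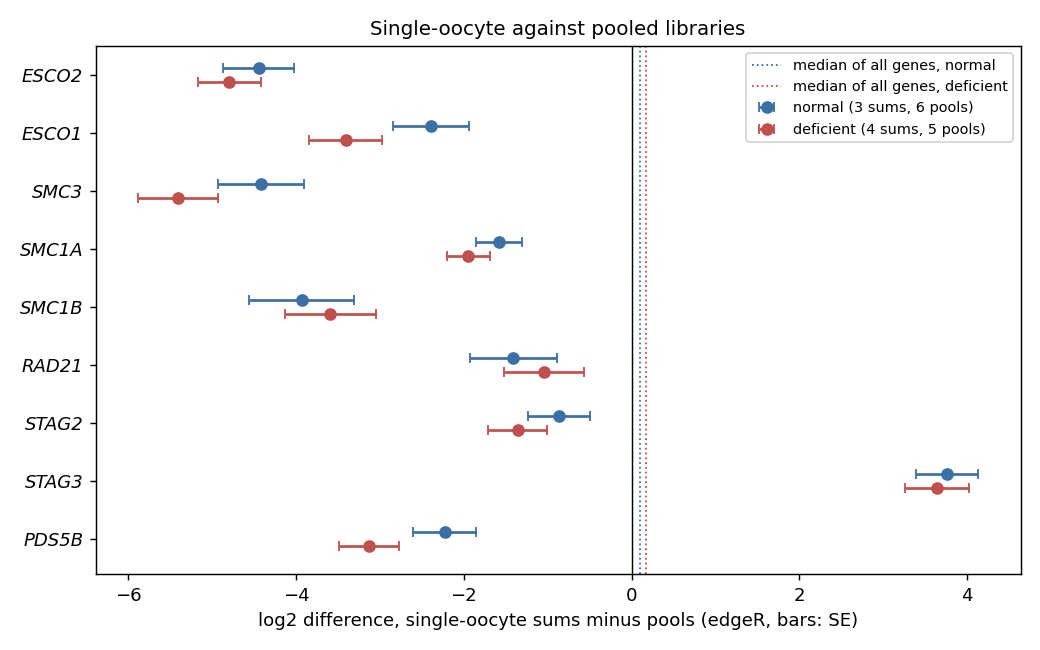
Log2 difference between single-oocyte sums and pools for the 9 members tested, in normal (3 sums, 6 pools) and deficient (4 sums, 5 pools) oocytes, with bars for the standard error and dotted lines for the median of all genes (0.11 and 0.17). STAG3 lies at 3.76 and 3.64 and all other members tested lie below 0, SMC3 at -4.42 and -5.41 and ESCO2 at -4.45 and -4.79.

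Single oocytes carried 1 of 2 dates, with 8 deficient and 9 normal oocytes on 17 September and 6 and 6 on 22 September. Title numbers 1 and 3 occurred on 17 September alone, number 2 on 22 September alone and number 4 on both. Date and title number therefore cannot be told apart outside number 4. Between the dates, with state in the model, edgeR called 45 of 11850 genes (0.38%) and 0 of the 9 members, of which SMC3 came closest to the threshold. Deficient oocytes held 64.4 ± 28.7 CPM of SMC3 on the earlier date (SD, n = 8) and 27.5 ± 20.7 CPM on the later (SD, n = 6), and normal oocytes 53.98 ± 18.02 (SD, n = 9) and 50.01 ± 23.03 CPM (SD, n = 6). The log2 difference (later minus earlier) was -0.97 (SE 0.26, edgeR adjusted p = 0.124). It passed in 3 of 14 other settings and missed the threshold in the rest. It passed with DESeq2 (adjusted p = 0.0312) and without the filter on low counts (adjusted p = 0.00500). It also passed without the normal sum 2 of the later date (adjusted p = 0.0458). ESCO2 went the other way by 0.26 (SE 0.15), from 187.4 ± 35.0 to 247.8 ± 74.1 CPM in deficient and from 160.0 ± 35.95 to 194.3 ± 58.0 CPM in normal oocytes. Within the later date alone, with each oocyte as a sample, the state difference of SMC3 was -1.16, against -0.50 over all sums. That is the lowest of the 15 other settings. Cells are not replicates, so the value is a description and shows no state effect particular to this date.

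Among the genes that act on cohesin, the loader NIPBL and the release factor WAPL were lower in single-oocyte libraries as SMC3 was. In a list of 14 genes of loading, release and establishment, 13 had a row and 11 were tested. In normal oocytes 3 were higher and 5 lower in single-oocyte sums (median log2 difference -1.18), and in deficient oocytes 2 and 5 (median -0.58). Of all 17643 genes tested, 26.1% were higher and 25.3% lower in normal oocytes, and 29.6% and 27.6% in deficient oocytes. NIPBL, the loader, had -2.97 (edgeR adjusted p = 2.74e-07) and -3.38 (adjusted p = 6.99e-09), while its partner MAU2 had 0.09 (adjusted p = 0.879) and 0.59 (adjusted p = 0.218). The release factor WAPL had -3.66 (adjusted p = 1.33e-08) and -3.41 (adjusted p = 3.82e-09), and PDS5A, the sister protein of PDS5B, -1.87 and -2.22. Replication factors of the list lay on both sides: WDHD1 had -2.24 and -2.05, DDX11, a helicase, 2.72 and 3.86, and DSCC1, a clamp loader subunit, 0.78 in normal oocytes. CHTF18, its partner, is also among those counted as higher, but it had 57 counts over all 11 pools and passed the filter through the single-oocyte sums alone, so its call says nothing further. CDCA5, or sororin, which opposes WAPL, had -1.18 and 0.21, neither called. HDAC8, the SMC3 deacetylase, had 0 counts in all 40 libraries.

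Genes that protect or cut cohesin differed in both directions between library types. Of 17 tested, 3 were higher and 8 lower in normal oocytes (median -0.56) and 4 and 8 in deficient oocytes (median -0.42). Over all 17643 genes, 51.4% were called in normal and 57.2% in deficient oocytes, so a call by itself was common. PTTG1, or securin, the inhibitor of separase, had -4.89 (edgeR adjusted p = 1.22e-11) and -5.71 (adjusted p = 2.63e-13), from pool means of 1060 ± 168 CPM (deficient) and 968.9 ± 238 CPM (normal). Separase itself, ESPL1, had -1.73 and -1.33 (adjusted p = 2.78e-05 and 0.000156). SGO1 had -2.18 and -3.03 and SGO2, the shugoshin of meiotic centromeres, -3.35 and -4.49 (adjusted p from 1.63e-05 to 1.30e-08). The checkpoint kinase BUB1B had -3.43 and -3.36. The genes that rose included INCENP (2.92 in deficient oocytes) and AURKB (2.03 in normal oocytes), members of the chromosomal passenger complex, and PPP2R1A, the scaffold of the phosphatase that shugoshins recruit (1.08 and 1.70).

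The other SMC complexes had low core subunits too. Of 13 condensin and SMC5/6 genes, 2 were higher and 7 lower in each state (medians -2.21 and -1.26). All 4 SMC genes of the list, SMC2, SMC4, SMC5 and SMC6, were among the 7. SMC4 averaged 906.8 ± 459 CPM over the 11 pools and 32.67 ± 17.3 CPM over the 29 oocytes, and NCAPG, a condensin subunit, had -2.86 and -3.51. The higher genes were NCAPH2, with a mean of 0.887 ± 1.00 CPM over the 11 pools and 12.79 ± 6.58 CPM over the 29 oocytes, and NSMCE1, which had 29 counts over all pools, passed the filter through the single-oocyte sums alone and is no support for a rise. Of 14 tested genes of synapsis and crossing over, 5 were lower in normal oocytes (median -1.42) and 6 in deficient oocytes (median -1.45), and 1 was higher in each state. The lower genes include TEX12 in each state and HORMAD2 in deficient oocytes. Both passed the filter through the pools alone, so their calls are no support for a fall. Beside both lists stand the shares over all genes, 26.1% higher and 25.3% lower in normal oocytes, and 29.6% and 27.6% in deficient oocytes. SYCP2, of the chromosome axis, had -3.09 and -3.71 and the crossover gene MLH3 -2.61 and -2.75. None of the genes in these 4 lists was called between the states, by date, or for a difference of the state effect between library types.

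The genes whose level followed ESCO2 most closely were found by Spearman's rho of log2 CPM, as a description. Over the 11 pools, among 6397 genes with a mean of at least 10 CPM, they were CPEB3 (rho 0.955), LOC102163608 (0.936), SENP7 (0.918), CPEB4 (0.918) and LOC102161381 (0.909), against a median of -0.127 over all these genes. CPEB3 and CPEB4 are RNA-binding proteins of the cytoplasmic polyadenylation family and SENP7 removes SUMO chains. STAG2 came 13th with 0.864, PDS5B had 0.636, ESCO1 0.564, SMC1B 0.436, SMC3 0.345, RAD21 0.164 and SMC1A -0.245. Over the 29 single oocytes, among 5815 genes, they were RBM17 (0.850), SLC25A30 (0.848), STOML3 (0.823), H1FOO (0.815), the linker histone of oocytes, and SLIT3 (0.802). All genes of an oocyte share the counts left by LOC102158401, and the median rho there was 0.320, while STAG2 had 0.530, SMC1A 0.469, STAG3 0.310 and SMC3 0.216.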

How the data were processed

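The authors deposited raw counts per gene in 2 tables, one of 11 pools and one of 29 single oocytes, read as whole numbers with no normalization. FastQC, Trim Galore, TopHat2 2.0.14, edgeR and build Sscrofa10.2 are named per the submitters' processing notes. For the counting program and its strand setting, nothing is given in the sources used here, so reads of antisense or near-identical genes cannot be told apart. A row without a name, 1.05% to 4.75% of a pool's counts and 0.648% to 8.15% of an oocyte's, was left out. Members under a gene number were matched through a name table of Sscrofa11.1, and no sequence or coordinate is printed.

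Oocytes were summed by state and title number (4 deficient, 3 normal sums), since cells are not replicates. Genes were tested in R 4.3.3 with edgeR 4.0.16 (quasi-likelihood, TMM, filterByExpr, Benjamini-Hochberg over all genes, threshold 0.05), checked on simulated data. Library type and the interaction came from 1 fit of 4 groups over 11 pools and 7 sums, and dates from sums by state, number and date. DESeq2 1.42.0, RLE scaling, no filter, blocks, leave-outs and each oocyte as a sample were alternatives. Intervals and limits of 0 counts cover counting error only. No 2 libraries of a group agreed within sampling noise (smallest chi-square per degree of freedom 38.3 in pools, 4.28 in oocytes). Same-numbered sums deviated together (correlations 0.237, 0.327 and 0.287), a pairing read from the data, not stated in the labels. Number 2 occurred on 22 September alone and number 3 on 17 September alone, so number and date cannot be told apart for these sums. Same-titled pools did not all deviate together.

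The members, lists and tests were chosen with earlier results of these data known. Named were all members, 12 chosen regulators, up to 2 genes called higher and 2 lower of smallest p per list and comparison, and the 5 genes most like ESCO2. TEX12 and HORMAD2 were named only for how they passed the filter. A gene that the rule also named is not reported here.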

Additional observations from a re-analysis of the deposited data

Results flagged for a closer look

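Among 30 groups of pools or sums of 4 to 10 samples, 6 held a value far from the others. The rule marks about 1 in 20 groups when values are independent and normally spread. These groups share pools and REC8 was near 0 counts, so that rate is no measure for them. The deficient sum 4 of single oocytes, made of 7 oocytes, held 261.1 CPM of ESCO2, against 171.0 to 178.0 CPM in the other 3 sums. Its oocytes included those with the lowest LOC102158401 shares, 46.7%, 48.9% and 49.4%, which leave more counts to other genes. The part of that in the value was not tested. SMC1B stood at 183.6 CPM in deficient pool A2 and at 164.0 CPM in normal pool A3, each well above its group. SMC1A stood at 188.8 CPM in normal pool B2. REC8 stood at 0.4297 CPM (11 counts) in deficient pool B2, whose group was otherwise at 0, and at 0.3061 CPM (5 counts) in normal pool B4. In a group otherwise at 0 any count is marked, so the first of these marks carries no information.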

How the results depend on the processing

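In pools, edgeR's count of 0 genes between the states became 28 with DESeq2 and stayed 0 with RLE scaling, without the filter, without any 1 pool and with the pool title as a replicate block (0 of 15468 genes). Same-titled pools correlated by -0.269, 0.332, 0.754 and 0.183, and not every pool correlated best with its own title. These pairs are too few to show whether the titles mark a pairing, and the labels do not state one. The block changed no call in pools. In single-oocyte sums the count of 0 became 2 with DESeq2, 4 without the filter, 2 with the replicate block, 1 with each oocyte as a sample and 2 with oocytes of 17 September alone. For the difference of the state effect it became 1 with DESeq2, 6 without the filter and 3 with each oocyte as a sample. No member was among the state or interaction calls in any setting. By date, 45 genes became 191 with DESeq2, 237 without the filter and 333 with each oocyte as a sample, and 12 to 58 when 1 sum was left out (12 and 15 without deficient sum 3 or 4 of 17 September, 26 and 22 without deficient or normal sum 4 of 22 September). The members called by date, 0, became 1 with DESeq2 and 1 without the filter, and 0 to 1 when 1 sum was left out, SMC3 each time. Between library types, leaving out 1 pool or sum gave 7 to 9 of the 9 members (8 otherwise) in normal and 8 to 9 in deficient oocytes, and 7811 to 9372 and 9253 to 10316 genes. No direction reversed for a called member. The cause of these changes was not tested. Depth limits REC8 in both library types and ESCO1, RAD21, SMC1B and PDS5B in single oocytes, where the median was 3 to 7 counts per oocyte.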
